A study of Mus musculus with 4 samples.

Results

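The platelet transcriptome of young wild-type male mice was read from 2 libraries, the library labelled WT and the library labelled Young, of the 4 in the series. They were chosen by their labels alone: both hold platelet RNA of wild-type mice aged 3 months, WT from littermates of mice with a platelet conditional knockout of HuR (cKO) and Young from the group that served as the comparison for mice aged 24 months (Old). No treatment, strain or floxed allele was named for either in the labels, and no promoter was named for the Cre of the knockout. Each library is a pool of platelets from 7 mice and the only library of its group, so no difference between them has a replicate check, and animals, cohort and library preparation cannot be told apart. Libraries labelled cKO (3 months) and Old (24 months) are used below only to set the distance between WT and Young beside other distances.

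Platelets are fragments of bone marrow megakaryocytes that circulate without a nucleus, and their RNA is what the megakaryocyte packed into them plus any made by organelles they carry. They stop bleeding by sticking to exposed collagen and von Willebrand factor through surface glycoproteins, changing shape through actin and tubulin, and releasing granules filled with chemokines and clotting proteins. Small numbers of red and white blood cells in a platelet preparation also give RNA, which is why markers of those cells were counted beside those of platelets.

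WT held 17978384 reads in genes and Young 18145612, within the range of the 4 libraries (17702341 to 18472149). Elavl1, the gene for the RNA-binding protein HuR, had 876 reads in WT, 621 in Young and 527 in Old, but 1481 in the library labelled cKO. Reads over the whole gene thus did not show the loss that this label names. The labels do not name the deleted part of the gene, and whether a part was missing was not tested. Reads of 4 Y-chromosome genes (Ddx3y, Eif2s3y, Kdm5d and Uty) were present in all 4 libraries. Of the markers that define platelets, Pf4, Itga2b, Gp9, Tubb1 and P2ry12 were all among the most abundant genes of both libraries, as given below.

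A small set of genes held most of the reads. In WT 13 genes made up 25% of all reads and 77 genes made up 50%. Young needed 15 and 84 genes for the same shares. The 10 genes with most reads took 22.998% of WT and 21.4% of Young, and 100 genes took 54.5% and 53.0%. At the other end, 15135 genes had at least 1 read in WT and 15058 in Young, 13673 of them in both. Levels are given from here on as reads per kilobase of gene length and per 1000000 reads of the library (RPKM), which allows genes to be compared with one another. By that measure 6447 genes, 5723 of them protein-coding, reached a level of 1 in both libraries, 1808 reached 10, 391 reached 100 and 52 reached 1000. A count of 3 reads on a gene of 1 kb corresponds to a level of 0.167 in WT and 0.165 in Young, the limit that a count of 0 allows for such a gene.

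**Figure D1:**
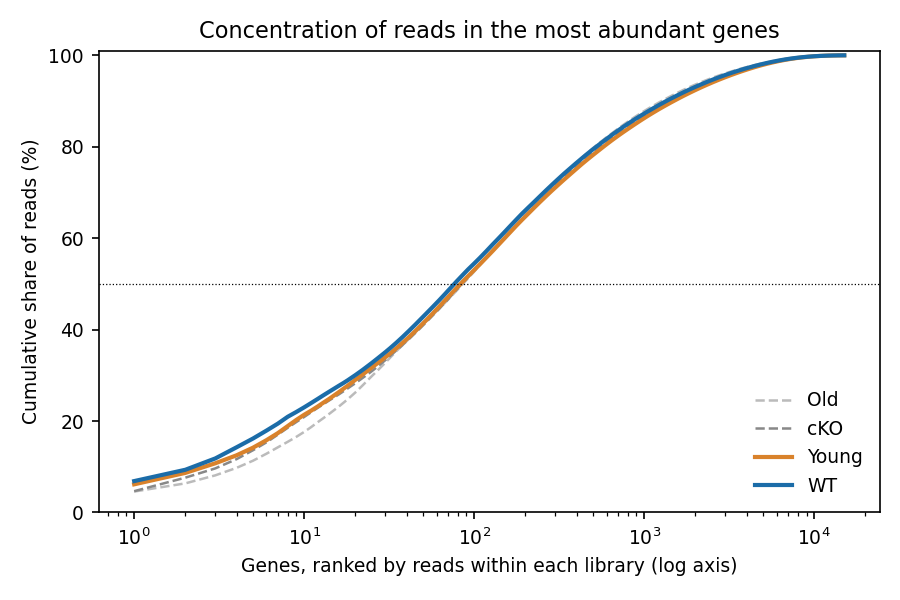
Share of a library's reads (%, vertical axis) held by its most abundant genes, against the number of genes counted from the top (log axis). The 4 lines are the 4 libraries and the dotted line marks 50%, which WT crosses at 77 genes and Young at 84.

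Tmsb4x, which encodes the actin-sequestering peptide thymosin beta 4, had the highest level in both libraries, 50006 in WT and 44863 in Young, and alone took 6.86% and 6.15% of the reads. Next came Fth1, the ferritin heavy chain that stores iron (28619.9 in WT, 28891 in Young), B2m, the light chain of MHC class I (28829 and 19132), and Ppbp, the precursor of the platelet chemokine CXCL7 (22483 and 16109). The other members of the top 10 were the red cell gene Hba-a1, the calmodulin-binding protein Nrgn, the platelet factor 4 gene Pf4, the G protein subunit Gng11, the cysteine protease inhibitor homologue Ctla2a and the tetraspanin Cd9, and the 10 genes highest by level were the same in both libraries. Among protein-coding genes, ranks 11 to 20 over the mean of the libraries held Myl9 (a myosin light chain) and the mitochondrial genes mt-Cytb and mt-Co1. They also held the von Willebrand receptor complex subunit Gp9, the ferritin light chain Ftl1, Lyz2 (a lysozyme) and Dap. The others were the secreted chaperone Clu, the protein kinase C substrate Plek, and Rgs18, a brake on G protein signalling. Among these 20 genes the ratio of WT to Young, after the libraries were scaled together, ran from 0.387 for Hba-a1 to 1.80 for Rgs18, with a median of 1.15. It lay within 1.5-fold of equality for 15 of the 20. By reads rather than level, long genes moved up: Tsc22d1, a leucine zipper transcriptional regulator with 345868 reads in WT and 302748 in Young, was in place 5 in both libraries, and Itga2b, the integrin alpha IIb chain, was in place 10 in Young with 203068 reads.

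**Figure D2:**
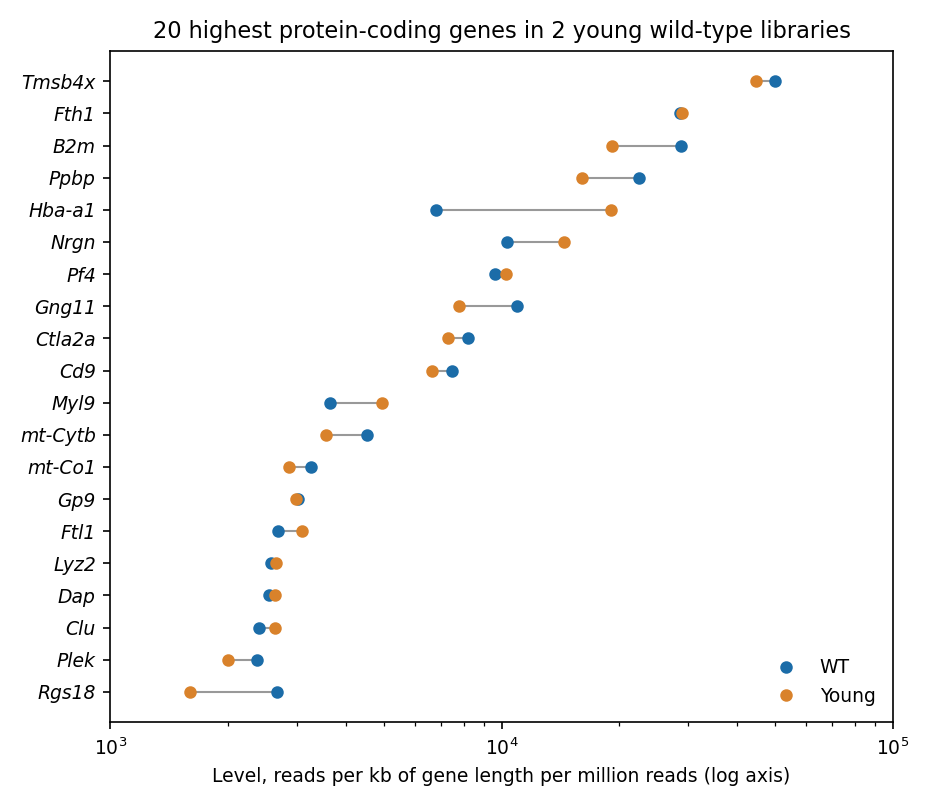
Level (RPKM, log axis) of the 20 protein-coding genes with the highest mean level, 1 point for each library. Tmsb4x stands highest in both, and Hba-a1 is the gene with the widest gap, 6801 in WT and 19024 in Young.

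To show the sequence from which the most abundant platelet transcripts start, promoter windows were taken from RefSeq (build GRCm38.p6), each from 250 bases before to 50 after the start of transcription and written 5′ to 3′ along the gene's own strand. The 4 windows shown are those of Tmsb4x, the most abundant gene (chrX:167209169-167209468, minus strand), the neighbouring chemokine genes Ppbp (chr5:90768268-90768567, plus strand) and Pf4 (chr5:90772185-90772484, plus strand), and Gp9, the receptor subunit (chr6:87777820-87778119, plus strand). Capitals mark GATAA (the core of the GATA factor motif), CCGGAA (the core of the ETS factor motif) and TATAAA (the TATA box), on either strand.
Tmsb4x: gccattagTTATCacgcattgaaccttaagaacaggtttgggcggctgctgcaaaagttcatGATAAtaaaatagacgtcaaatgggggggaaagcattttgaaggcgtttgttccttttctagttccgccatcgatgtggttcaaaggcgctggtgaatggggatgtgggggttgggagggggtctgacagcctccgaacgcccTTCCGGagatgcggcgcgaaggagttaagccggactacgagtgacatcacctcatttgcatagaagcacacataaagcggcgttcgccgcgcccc
Ppbp: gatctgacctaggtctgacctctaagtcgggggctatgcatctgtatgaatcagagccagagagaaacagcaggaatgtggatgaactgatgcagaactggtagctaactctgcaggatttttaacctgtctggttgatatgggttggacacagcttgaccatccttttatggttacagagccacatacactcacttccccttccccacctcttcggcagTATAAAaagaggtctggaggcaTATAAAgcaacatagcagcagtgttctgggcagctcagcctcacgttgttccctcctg
Pf4: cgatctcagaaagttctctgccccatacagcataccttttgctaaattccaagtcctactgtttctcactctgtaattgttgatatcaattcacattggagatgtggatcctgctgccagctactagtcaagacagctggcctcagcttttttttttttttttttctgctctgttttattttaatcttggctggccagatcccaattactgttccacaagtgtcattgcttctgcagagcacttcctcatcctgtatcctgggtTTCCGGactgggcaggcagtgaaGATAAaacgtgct
Gp9: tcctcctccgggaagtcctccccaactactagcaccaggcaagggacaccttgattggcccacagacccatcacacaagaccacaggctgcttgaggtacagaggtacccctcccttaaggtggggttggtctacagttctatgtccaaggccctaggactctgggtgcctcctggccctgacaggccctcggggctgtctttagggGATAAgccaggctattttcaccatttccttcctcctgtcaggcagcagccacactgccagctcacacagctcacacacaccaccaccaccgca
In these windows Tmsb4x held 2 matches to GATAA and 1 to CCGGAA, Pf4 1 of each, Gp9 1 to GATAA, which is part of the longer GATAAG, and Ppbp only 2 matches to TATAAA. Windows of other abundant genes, not shown, held fewer. Those of Itga2b, Nrgn and Tubb1 had 0 matches to any of the marked motifs, and that of B2m had 1, to TATAAA. Among the 100 protein-coding nuclear genes with the highest level, 78 had a window. GATAAG was found on either strand in 10.3% of them, against 7.44% of all 32851 windows of the table and 4.78% of the 4543 windows of coding genes at a level of 1 or more in both libraries. GATAA, a count that includes each GATAAG, was in 20.5%, against 25.4% of all windows and 15.2% of those of expressed genes. CCGGAA was found in 23.1%, against 14.9% and 31.04%, TATAAA in 14.1%, against 13.6% and 6.96%, and CACCC, the core of the motif of KLF factors, in 69.2%, against 57.5% and 62.9%. These matches describe letters in the windows and were not tested.

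WT and Young were compared gene by gene by the ratio of their reads, scaled together by the trimmed mean of M values (TMM), with an exact 95% interval that covers counting error only. A gene was counted as higher or lower in WT if the larger count reached 100 reads and the interval lay beyond 2-fold. Of 6373 genes with that many reads, 28 were higher and 36 lower in WT, 1.00% in all (0.439% higher and 0.565% lower). Counts for gene groups below are to be read against those shares. Scaling to total reads moved every log2 ratio down by 0.11 and changed the split to 16 higher and 51 lower. Levels and shares of reads are per total reads of a library, whereas ratios use the TMM scaling. For genes near equality the levels and the ratio can therefore point in different directions. Pf4, for example, had a lower level in WT (9632 against 10262) but a ratio of 1.02, and Tubb1, Lyz2 and Fth1 were alike in this.

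Of the 23 adhesion receptor genes with enough reads 0 were past the rule, a count that the share of 1.00% over all genes also gives for so short a list. The log2 ratios of the 24 with 20 reads or more ran from -0.48 to 0.64 with a median of 0.14, against -0.0041 over all 11567 such genes. Cd9 stood at a level of 7461 in WT and 6641 in Young. Gp9 stood at 3023 and 2986, a ratio of 1.10 (1.08 to 1.11). Itga2b stood at 1616 and 2052, a ratio of 0.852 (0.847 to 0.858). Its partner Itgb3, the integrin beta 3 chain that completes the fibrinogen receptor, stood at 630 and 723. Treml1, a receptor of the alpha granule membrane, had 1032 and 1006, and Gp6, the collagen receptor, 243 and 219. Among receptors for soluble agonists the ADP receptor P2ry12 led with 1599.9 in WT and 1129 in Young (ratio 1.53, 1.52 to 1.55). Thereafter came the ATP-gated channel P2rx1 (359 and 411), the thrombin co-receptor F2rl2 (215 and 191) and, at a far lower level, the second ADP receptor P2ry1 (17.7 and 13.4). The thrombin receptor F2rl3 had 180 reads in WT and 282 in Young, a level of 5.02 and 7.79. None of the 9 members with enough reads was past the rule.

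Cargo of the alpha granules took 6.405% of the reads in WT and 5.81% in Young. Behind Ppbp and Pf4 (9632 in WT and 10262 in Young, ratio 1.02, 1.01 to 1.02) stood Clu (2397 and 2635) and Srgn, the proteoglycan core that holds basic proteins in granules (1598 and 1209). Thbs1, the gene of thrombospondin 1, was at 685 and 722, F5, the gene of coagulation factor V, at 488 and 461, and Vwf at 356 and 415. None of the 20 members with enough reads was past the rule, and 1 of the 29 listed had no read in either library. Genes of granule release were led by Snap23 and Stx11, both membrane fusion proteins (734 and 605, and 708 and 673), followed by Rab11a (219 and 148) and Sytl4 (135 and 132), with 0 of 24 past the rule. Granule biogenesis genes were lower in level, with Lamp1, a lysosomal membrane protein, at 461 and 444 and Nbeal2, which is mutated in gray platelet syndrome, at 2.89 and 3.96.

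In the signalling group the 43 members took 6.19% and 6.22% of the reads, and 0 of 42 were past the rule. Nrgn stood at 10324 in WT and 14447 in Young, a ratio of 0.774 (0.770 to 0.778), and Gng11 at 10931 and 7772, a ratio of 1.52 (1.51 to 1.53). The 2 genes thus changed places between the libraries. Plek was at 2369 and 1999, Rgs18 at 2666 and 1601 (ratio 1.80, 1.78 to 1.82), and Rap1b, the small GTPase that switches on integrins, at 1381 and 1070.4. Cytoskeletal genes, with Tmsb4x in first place, made up 12.2% of the reads in WT and 11.8% in Young. Tubb1, the beta tubulin of the platelet marginal band, stood at 1947 and 1983. Myl9 stood at 3639 and 4955 and Tpm4, a tropomyosin, at 1983 and 1637. Of the 48 cytoskeletal members with enough reads none was past the rule. For eicosanoids, the lipoxygenase gene Alox12 (1334 and 1279) stood above Alox5ap (413 and 587) and the cyclooxygenase gene Ptgs1 (139 and 142). Among the megakaryocyte transcription factors Tsc22d1 was followed by Nfe2 (166 and 153), Tal1 (61.7 and 76.7) and Gata1 (44.1 and 55.7). The annotation lists 1001 genes as transcription factors, of which 320 reached a level of 1 in both libraries. Of the 371 with enough reads 0 were higher and 2 lower in WT, to be read against the 1.00% over all genes.

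Genes of housekeeping roles were read at the following levels. Ribosomal protein genes took 1.18% and 1.27% of the reads, led by Rplp1 (634 in WT and 867 in Young), and 0 of 79 were past the rule. Of the translation factors the highest were Eif1 (1323 and 1155) and Eef1a1 (1149 and 1231). Antioxidant enzymes were led by Gpx4, the lipid peroxide reductase (864 and 797), and the peroxiredoxin gene Prdx6 (652 and 519). Glucose metabolism showed the glucose transporter Slc2a3 (396 and 508), Pkm (286 and 336) and Aldoa (253 and 281). Slc6a4, the serotonin transporter with which platelets take serotonin from plasma, stood at 171 and 177. In MHC class I, H2-D1 stood at 601 and 652, far below B2m, and 0 of 11 members were past the rule.

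By annotated biotype, protein-coding genes took 96.6% of the reads in WT and 97.1% in Young. Long non-coding classes took 2.03% and 1.84%. Of that, the single gene 1810058I24Rik gave 0.948% and 0.867%. It is annotated as a long intergenic RNA, although it is known to encode a mitochondrial micropeptide. It had 170451 reads in WT and 157269 in Young, a level of 3405 and 3113. Without it the long non-coding share was 1.08% and 0.970%. Gm6634 (61793 and 54380 reads) and Gm11274 (9033 and 7215) were the next intergenic RNAs by level. Of 1895 long non-coding genes listed, 284 reached a level of 1 in both libraries. The 2 mitochondrial ribosomal RNAs took 0.712% and 0.462%, and pseudogenes of all kinds 0.470% and 0.450%. Immunoglobulin genes took 0.0507% and 0.0367%.

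The most abundant coding genes were short. The 49 nuclear coding genes with a mean level of 1000 or more had a median length of 2082 bases, the 336 between 100 and 1000 a median of 2897, the 1326 between 10 and 100 a median of 3501, and the 4485 between 1 and 10 a median of 4466. Since length divides the level, the order of the classes is in part set by the measure. Those 49 genes took 38.1% of the reads in WT and 37.1% in Young. The median GC content of the same classes ran from 51.4% at the top to 49.4% at the bottom. The ratio of WT to Young showed little with length: its median log2 value lay between -0.01 and 0.04 in each of 5 length classes. Genes past the rule were most frequent among the 288 under 1 kb (8.33%) and least among the 1361 over 8 kb (0.367%).

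The libraries ranked genes alike. Over 16520 genes with a read in either, Spearman's rho of the reads was 0.942 and Pearson's r of the log2 values 0.907, and over 6373 genes with 100 reads in either they were 0.954 and 0.976. These are correlations across genes, which are not independent replicates. Among the 100 genes highest by level, 90 were shared, and among the 1000 highest 933. Of 1406 genes with 1000 reads or more in both libraries, 94.8% lay within 1.5-fold and 99.3% within 2-fold of equality, 3 were higher and 7 lower. The SD of the log2 ratio was 0.31 among the 417 genes with 3000 to 10000 reads, where counting error alone would give 0.030. For the 2401 genes with 10 to 30 reads it was 1.07, where counting error would give 0.52. The spread between the libraries was thus wider than counting error in each of these classes.

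**Figure D3:**
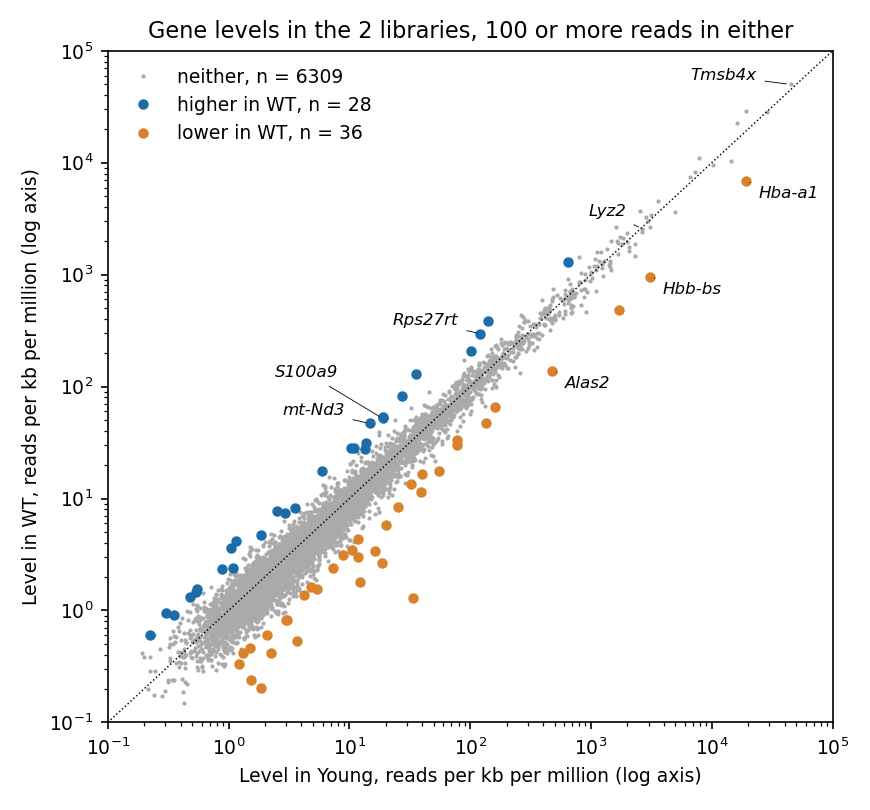
Level in WT against level in Young (RPKM, both log axes) for the 6373 genes of both tables with 100 or more reads in either library; the dotted line marks equal levels. Blue points are the 28 genes higher in WT and orange points the 36 lower, with the haemoglobin genes Hba-a1 and Hbb-bs the most abundant of them.

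Most red cell genes had fewer scaled reads in WT. Of 21 erythroid marker genes with enough reads, 8 were lower in WT and 0 higher, and the median log2 ratio of 28 members was -0.58, with 23 of 28 below 0. The alpha globin gene Hba-a1 (chr11) had 99288 reads in WT and 280302 in Young, with 195482 in the library labelled cKO and 137851 in Old, so that WT was the lowest and Young the highest of the 4. The ratio of WT to Young was 0.387 (0.384 to 0.390). Hbb-bs, a beta globin, had 13163 reads in WT and 43250 in Young (0.333, 0.326 to 0.339), and Hbb-bt 6056 and 21625 (0.306, 0.297 to 0.315). Alas2, the first enzyme of haem synthesis in red cells, had 5972 and 20867 reads (0.313, 0.304 to 0.322). Fech, the last enzyme of that pathway, had 1721 and 4060 (0.463, 0.438 to 0.490). Bpgm, which makes the 2,3-bisphosphoglycerate of red cells, Slc25a37, the mitochondrial iron importer mitoferrin 1, and Tspo2 were lower as well. Young also had the most reads of the 4 libraries for Hbb-bs and Hbb-bt. For Alas2, Fech, Bpgm, Slc25a37 and Tspo2 the library labelled cKO had the most, such as 22424 for Alas2 and 6215 for Fech. Slc4a1, the red cell anion exchanger, had 663 and 1569 reads, and its ratio of 0.462 did not pass the rule. Haemoglobin genes together made up 0.785% of the reads in WT and 2.02% in Young.

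Not every red cell gene had such a ratio. Car2, a carbonic anhydrase, had 1001 reads in WT and 1161 in Young. Hba-a2 had 22553 and 21832, but 89.3% of its 50-base stretches also occur in Hba-a1, so reads cannot be assigned firmly to either copy. The alpha globin genes summed to 0.678% of the reads in WT and 1.67% in Young, a ratio of 0.441 (0.438 to 0.444). The summed level of the 30 erythroid markers was 10678 in WT and 26774 in Young. In such pooled RNA, fewer cells of a type and less RNA per cell cannot be told apart.

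Ratios of white cell markers lay on different sides of 1. For neutrophils the alarmin genes S100a9 (487 reads in WT, 179 in Young) and S100a8 (350 and 130) were higher in WT, with ratios of 2.97 (upper bound 3.55) and 2.94 (2.40 to 3.63), and these were 2 of only 4 members with enough reads. The median log2 ratio of 12 neutrophil members was 1.497, and the granule genes Mpo, Ltf, Camp and the surface marker Ly6g had no read in either library. T and NK cell markers ran the other way: the median of 33 members was -0.56, 27 of 33 were below 0, and Bcl11b, a T cell transcription factor, was lower in WT with 199 reads against 624. Tcf7 had 1127 and 2343 reads and Lck 353 and 774, neither past the rule. Of 27 B cell markers 25 lay above 0, with a median of 0.30 and 0 of 24 past the rule. Cd74 had 3938 reads in WT and 3015 in Young, and Igkc 1636 and 852. Of 17 monocyte and macrophage markers 14 lay above 0, with a median of 0.38, and 1 of 9 with enough reads, the fibronectin gene Fn1, was higher in WT (192 reads against 75). By level that list was dominated by Lyz2, at 2570 in WT and 2658 in Young, while the next member, Ctss, stood at 9.63 and 5.19. Summed levels were 98.1 in WT and 45.1 in Young for neutrophil markers, 144 and 218 for T and NK cells, and 693 and 524 for B cells. The medians of the erythroid, neutrophil, monocyte, T and NK cell and B cell lists kept their signs when the libraries were scaled to total reads or by DESeq2 size factors. The part of these cells in the differences of other genes was not tested.

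**Figure D4:**
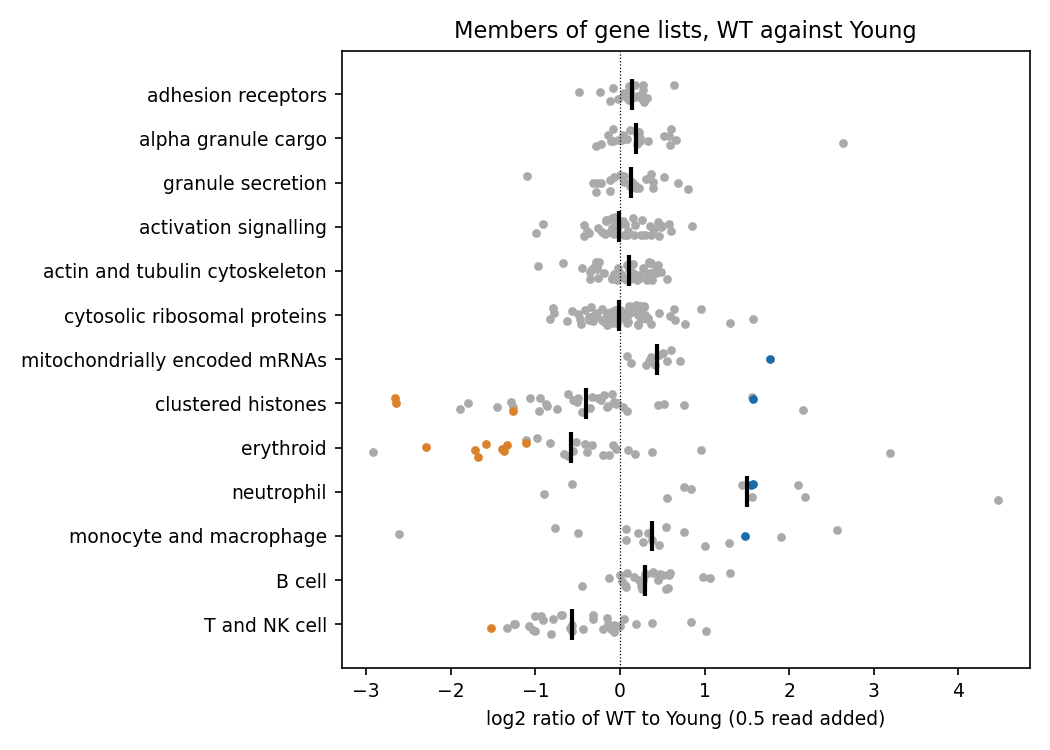
log2 ratio of WT to Young (0.5 read added, horizontal axis) for members of 13 gene lists with 20 or more reads over both libraries; each point is a gene, black bars are list medians, blue points are past the rule as higher in WT and orange as lower. The erythroid median lies at -0.58 and the neutrophil median at 1.497, while the adhesion, granule, signalling and cytoskeleton medians lie between -0.01 and 0.19.

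Other genes higher in WT included Il1b (143 reads in WT, 40 in Young), the gene of interleukin 1 beta, Dusp1, an immediate-early phosphatase (176 and 51), Lst1, a myeloid protein (399 and 144), Hdc, the histamine-forming enzyme of basophils and mast cells (152 and 56), and Itgax, an integrin gene of the dendritic cell list (127 and 47). Dusp1 was the only member past the rule among 14 immediate-early genes with enough reads. Il1b was so among 9 interleukins and chemokines, Itgax among 13 of the dendritic cell list, and Hdc among 3 of the basophil and mast cell list. Summed reads were 3558 in WT and 4740 in Young for the immediate-early list and 1054 and 1258 for the basophil and mast cell list. They were 2683 and 2602 for interleukins and chemokines, and 10509 and 9641 for the dendritic cell list. Birc2, an inhibitor of apoptosis, had most reads of the nuclear genes higher in WT, 17045 and 8428 (2.21, 2.15 to 2.27). Lower in WT were Isg15, an interferon-induced ubiquitin-like protein (79 and 275), Ube2l6, the enzyme that conjugates it (2361 and 5800), the cold-shock RNA-binding protein Cirbp (112 and 347), Igfbp4 (274 and 838), Gphn, gephyrin (16 and 105), and Foxo4 (102 and 303). Of the 28 members of the interferon-stimulated list with enough reads, only Isg15 was past the rule. Ube2l6 is not on that list. All 12 mitochondrially encoded mRNAs with enough reads for a list lay above 0, with a median of 0.44, and mt-Nd3 was past the rule (293 reads in WT, 93 in Young), although 98.0% of its 50-base stretches occur in another gene. The mitochondrial chromosome took 2.33% of the reads in WT and 1.76% in Young. At the lowest counts, 12 genes had at least 20 reads in WT and none or no entry in Young, at most 71 reads, and 9 had the reverse, at most 26.

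The ratio moved with base composition. Among genes with enough reads, the median log2 ratio of WT to Young was 0.31 for the 412 whose longest annotated transcript held under 40% G and C, 0.20 for those between 40% and 45%, 0.04 between 45% and 50%, -0.08 between 50% and 55%, -0.26 between 55% and 60%, and -0.39 for the 176 over 60%. Several of the abundant genes with the highest ratios were low in GC, such as Rgs18 at 33.4%, B2m at 41.2% and Ppbp at 42.4%, and several with the lowest were high, such as Nrgn at 58.6% and Myl9 at 56.6%, whereas Gng11 at 52.4% had a ratio of 1.52. In the same classes the library labelled cKO against Young ran only from -0.04 at the low end to 0.09 at the high end, while cKO against WT ran from -0.32 to 0.50. Old against Young ran from -0.24 to 0.16 and Old against WT from -0.55 to 0.48. These comparisons share libraries and are not independent. When each ratio was centred on the median of its GC class, an alternative chosen after the data were seen, 25 genes were higher and 33 lower, 49 of them among the 64 above. The erythroid median was then -0.57, the neutrophil median 1.35 and the T and NK cell median -0.52, while that of the mitochondrial mRNAs was 0.15. Among 1406 genes with 1000 reads in both libraries, centring took the SD of the log2 ratio from 0.31 to 0.26.

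**Figure D5:**
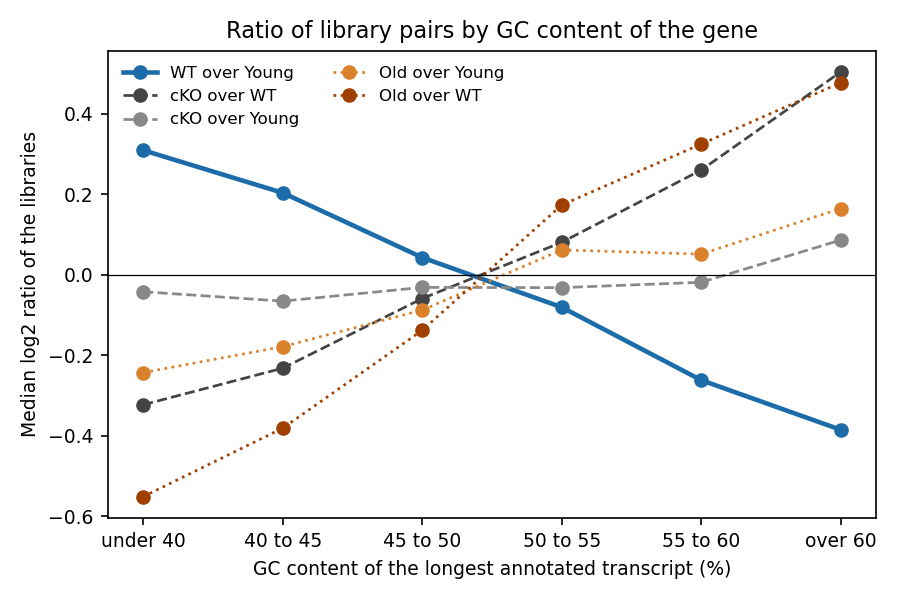
Median log2 ratio of 5 pairs of libraries (vertical axis) among genes with 100 or more reads in either, by the GC content of the gene's longest annotated transcript (%, horizontal axis). WT over Young declines from 0.31 to -0.39, and cKO over Young stays between -0.07 and 0.09.

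Genes that resemble another gene held a larger share of those past the rule than of all genes with enough reads. A gene was counted as similar if at least 20% of its 50-base stretches occurred in another annotated gene, which held for 21 of the 64 genes and for 6.51% of all genes with enough reads. Rps27rt, a copy of a ribosomal protein gene with 91.1% of its stretches shared, had 1991 reads in WT and 825 in Young, and Hist1h4n, a histone H4 gene with 85.6%, had 2983 and 1096. Hist1h2br (88.7%) ran the other way with 71 and 488. Clustered histone genes as a list had a median of -0.40 over 38 members, and -0.11 over the 8 without such similarity. All values of these genes are uncertain, since reads of shared stretches cannot be assigned firmly to a copy. How such reads were counted is not given. Some genes with few reads also had shared stretches. Gapdh, a glycolytic enzyme usually abundant in every cell, had 19 reads in each library and shares stretches with 218 genes. Gp1bb, a subunit of the von Willebrand receptor, had 9 and 14 reads, and 88.8% of its stretches also belong to the overlapping Sept5. Gp1ba, the ligand-binding subunit of the same receptor, had 11438 and 11537 reads and no shared stretch. Whether shared sequence lowered the counts of Gapdh and Gp1bb was not tested.

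Set beside the other pairs of libraries, WT and Young lay closest. By the same rule the library labelled cKO differed from WT in 265 of 6273 genes (4.22%) and from Young in 183 of 6428 (2.85%), Old from Young in 555 of 6516 (8.52%) and from WT in 554 of 6328 (8.75%), and cKO from Old in 702 of 6349 (11.1%), against the 64 of 6373 (1.00%) between WT and Young. Among genes with 1000 reads in both libraries of a pair, the SD of the log2 ratio was 0.31 between WT and Young. It was 0.41 between Young and the library labelled cKO, 0.48 both between that library and WT and between Old and Young, 0.54 between Old and WT, and 0.62 between the libraries labelled cKO and Old. Each pair shares a library with others, and each group has 1 library, so these distances have no error of their own.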

How the data were processed

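Platelet RNA was sequenced in 4 libraries, each the pooled platelets of 7 mice and the only one of its group. The tools named for the mm10 build are featureCounts 1.5.0-p3, CASAVA, DESeq2 1.20.0 and HISAT2 2.0.5, per the submitters' processing notes, which give no roles here. The authors deposited 2 tables of a signal, gene counts scaled within each table; reads were recovered from its steps, and 100% of values came out whole within 0.02 reads. Genes with under 2 reads over a table's libraries are not listed. Tables were joined on the gene identifier, and 14652 of 17995 genes were in both. Another 4 per-sample columns were not used. edgeR 4.0.16 gave TMM factors over the 4 libraries and DESeq2 1.42.0 alternative size factors; R 4.3.3 and Python 3.11.15 with scipy 1.17.1 were used. With 1 library per group no count test could be fitted. Ratios carry exact Clopper-Pearson 95% intervals of the share of reads, which cover counting error only. The size rule was a larger count of at least 100 reads and an interval bound of at least 2-fold. It was tried only on simulated counts with counting error alone. The spread between the libraries was wider, so that trial cannot show how the rule behaves between them. Log2 ratios of list members used 0.5 read and at least 20 reads over both libraries. GC content and shared 50-base stretches came from GENCODE M21 transcripts of the same build, which matched 99.9% of genes. Gene symbols, positions, lengths and biotypes were those the authors deposited.

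Genes named are the 20 highest coding genes by level, the 10 with most reads, the 4 highest members and all members past the rule of each of 43 lists, the strongest coding differences and the highest non-coding genes; Elavl1, the Y-chromosome genes, Gp1ba, Gp1bb, Gapdh and list members below the highest 4 were chosen after their values were seen. The genes and lists were chosen with earlier results of these data known.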

Additional observations from a re-analysis of the deposited data

How the results depend on the processing

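Scaling to total reads gave 16 genes higher and 51 lower in WT, and DESeq2 size factors 29 higher and 35 lower. Of the 64 genes, 52 kept their call with total reads, 63 with DESeq2 and 49 with GC centring. A minimum of 20 reads gave 134 higher and 159 lower, no minimum 239 and 239, and 500 reads 6 and 14. A bound of 1.5-fold gave 165 and 174, and one of 4-fold 0 and 4. Without genes of shared sequence 19 were higher and 24 lower. Genes of either table gave the same counts as genes of both.

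With total reads the median log2 ratio was 0.027 for adhesion receptors, -0.12 for activation signalling, -0.26 for megakaryocyte transcription factors, -0.087 for MHC class I (a turn of sign from 0.027), -0.016 for translation factors (from 0.099), -0.13 for ribosomal proteins, -0.081 for the proteasome (from 0.034), -0.19 for zinc finger genes and -0.12 for all genes, which DESeq2 put at 0.0072. Total reads also turned the sign for granule biogenesis (0.11 to -0.0090), cyclic nucleotide braking (0.014 to -0.10), the cytoskeleton (0.11 to -0.0041) and eicosanoid synthesis (0.0096 to -0.10). The sign turned as well for interferon-stimulated genes (0.065 to -0.050), Rab GTPases (0.072 to -0.043) and serpins (0.11 to -0.00061). GC centring, added after the data were seen, turned the sign for megakaryocyte transcription factors (-0.14 to 0.050), phosphatidylserine exposure and lifespan (-0.21 to 0.054), soluble agonist receptors (-0.092 to 0.080), activation signalling (-0.0092 to 0.054), glycolysis (-0.074 to 0.059), antioxidant enzymes (-0.022 to 0.045), immediate-early genes (-0.024 to 0.19), ribosomal proteins (-0.014 to 0.038), solute carriers (-0.025 to 0.013) and serpins (0.11 to -0.032), and gave 0.00075 for translation factors and 0.15 for mitochondrial mRNAs. Leaving out members with shared sequence, also added, gave -0.11 for histones. The causes were not tested.

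Counted per kilobase, 22 genes in WT and 25 in Young held 50% of the summed level. Without haemoglobin and mitochondrial genes, coding genes took 97.3% of reads in WT and 97.5% in Young, and long non-coding genes 2.09% and 1.91%. Spearman's rho over genes with 100 reads was 0.954 for reads and 0.971 per kilobase, and over genes with 1 read 0.898 per kilobase. No paired analysis was possible because each group has 1 library. Depth limits genes under 100 reads, where counting error alone widens the ratio.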

Other observations

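Genes of further groups were read at the following levels in the 2 young wild-type libraries. Rab GTPases, which steer vesicles, were led by Rab11a (219 in WT, 148 in Young) and Rab6a (128 and 96.8), and 31 of 51 listed reached a level of 1 in both. Proteasome genes were led by Psme1 (27.0 and 25.6), an activator subunit, with 0 of 42 past the rule, and nuclear genes of oxidative phosphorylation by Cox8a (233 and 258), with 0 of 66. Slamf1, on the haematopoietic progenitor list, stood at 169 and 145, while Cd34 stood at 0.534 and 0.340. Of the endothelial list Plvap (26.0 and 36.1) and Tie1 (19.9 and 20.3) were highest. Proliferation genes were low: Pcna stood at 6.61 and 6.91, and 8 of 24 listed reached a level of 1 in both libraries.

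Among annotated transcription factors, 83 of 443 listed C2H2 zinc finger genes, 24 of 45 bZIP genes and 23 of 58 bHLH genes reached a level of 1 in both libraries. Behind Tsc22d1, the highest were the cold-shock protein Ybx1 (459 in WT, 702 in Young), Litaf (445 and 420) and Max, the partner of MYC (456 and 377). Olfactory receptor genes, for contrast, reached that level in 1 of 28 listed. Processed pseudogenes past the rule, 6 higher and 5 lower, each shared 41.3% or more of their stretches with another gene. Rpl30-ps10, with 96.6% shared, had 8 reads in WT and 213 in Young. Its ratio of WT to Young of 0.041 was the furthest from 1 among the 64.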
